A study of Mus musculus with 12 samples.

Results

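Major histocompatibility complex (MHC) class II molecules were examined at the RNA level in MLL-AF9 leukemia cells grown in 3 kinds of host mouse. The 7 genes were taken by name, as members of the class II pathway, out of 55401 genes in the expression table. They were the alpha and beta chain genes H2-Aa, H2-Ab1 and H2-Eb1, the peptide exchange genes H2-DMa and H2-DMb1, the invariant chain gene Cd74, and Ciita, the transactivator of the pathway. MLL-AF9 is a fusion oncogene, which had been transduced together with GFP into mouse bone marrow progenitors. The resulting leukemia was a single line passed from mouse to mouse many times, and the cells in every group carried MLL-AF9 and GFP. The cells were transplanted into non-irradiated wild-type (WT) C57BL/6 mice, into Rag2-/- mice on the same background, which lack mature T and B cells, or into NSG mice (NOD mice with the Prkdc scid mutation and without Il2rg), which lack T, B and NK cells. RNA was taken from GFP+ cells of the bone marrow of adult mice, and 4 libraries, labelled as biological replicates, were made for each host, 12 in all. By the paper, the cells came from moribund female mice, and in its survival experiment AML came earlier in NSG and later in Rag2-/- than in WT mice. Time since transplantation therefore cannot be told apart from host. The comparison of the 3 hosts asks how the immune cells around a leukemia bear on the genes the leukemia expresses.

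MHC class II is the molecule by which professional antigen-presenting cells (B cells, dendritic cells and macrophages) show peptides from endosomes to CD4 T cells. An alpha and a beta chain pair in the endoplasmic reticulum around the invariant chain Cd74, which fills the groove and steers the complex to endosomes. There the invariant chain is cut down by cathepsins, and the H2-DM heterodimer exchanges its last fragment (CLIP) for an antigen peptide. In antigen-presenting cells, transcription of the group is largely controlled by Ciita, a co-activator that binds no DNA itself and docks on factors sitting at the S, X and Y boxes of the promoters. Myeloid leukemias resemble progenitors and monocytes, cells in which class II is often low or inducible, for example by interferon-gamma. C57BL/6 mice carry an alpha chain gene of the I-E molecule that is not expressed, so that H2-Eb1 has no partner there.

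Of the 7 genes, 5 lie close together on chromosome 17. In 2 of them, H2-Eb1 and H2-DMb1, the letters of both the X and the Y box were found before the RefSeq start. By GENCODE M21 on GRCm38 (mm10), in the order along the chromosome, H2-DMa (ENSMUSG00000037649) spans 34119541 to 34139101, H2-DMb1 (ENSMUSG00000079547) 34153072 to 34160230, H2-Ab1 (ENSMUSG00000073421) 34257689 to 34269419, H2-Aa (ENSMUSG00000036594, on the minus strand) 34282744 to 34287823, and H2-Eb1 (ENSMUSG00000060586) 34305867 to 34316674. Ciita (ENSMUSG00000022504) lies on chromosome 16, from 10480059 to 10528418, and Cd74 (ENSMUSG00000024610) on another chromosome. Promoter sequences of RefSeq (GRCm38.p6) were listed for H2-Aa, H2-Eb1, H2-DMa and H2-DMb1, and not for H2-Ab1, Cd74 and Ciita. The stretches around the X and Y boxes of 3 of them, with the paralog H2-DMb2 for comparison, are shown because these genes span the range of levels from H2-Aa to H2-DMb1. Capitals mark the X box letters (AACNGATG), the X2 box letters (TGACGTCA) and the Y box letters (GATTGG). All are read 5′ to 3′ on the strand of the gene, upstream of the RefSeq start. The H2-DMb1 and H2-DMb2 stretches lie inside the GENCODE spans of these genes, which begin at 34153072 and 34143307. The H2-DMb1 stretch is cut after the X box, to 30 bases, because it is annotated as UTR in GENCODE.
H2-Aa, chr17:34287855-34287909, minus strand: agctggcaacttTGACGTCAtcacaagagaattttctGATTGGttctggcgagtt
H2-Eb1, chr17:34305766-34305824, plus strand: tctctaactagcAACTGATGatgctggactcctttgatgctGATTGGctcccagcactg
H2-DMb1, chr17:34153087-34153116, plus strand: ggtttacctagtAACTGATGatgctaggct
H2-DMb2, chr17:34145116-34145175, plus strand: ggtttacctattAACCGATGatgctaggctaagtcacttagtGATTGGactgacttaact

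The X box letters began 89 bases before the RefSeq start in H2-Eb1 and 92 bases before it in H2-DMb1. The Y box letters followed 29 and 30 bases downstream. H2-Aa held no X box letters of this form, and its X2 box letters began 74 bases before the start, with the Y box letters 25 bases further on. Searched on both strands of the 250 bases before the start, the Y box letters occurred in 14.5% of 32544 promoters, the X box letters in 1.99%, the X2 box letters in 1.55%, and Y and X box letters together in 0.252%. The 2 promoters listed for H2-DMa held neither set of X box letters, and the Y box letters were found in 1 of them, 199 bases before the start. A gene at about 100 TPM (H2-DMb1) and a gene at about 2 TPM (H2-Eb1) thus had the same 8 X box letters, AACTGATG. These matches describe letters in a window and are not evidence of binding.

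The deposited values are TPM (transcript abundances on a total common to all libraries), which are scaled for gene length. They can be compared between genes as far as the gene lengths used, which are not given, apply. The class II genes fell into 3 tiers, and Cd74 was not in the upper one. H2-DMa and H2-DMb1 were high, with mean levels of 111 and 102 TPM over the 12 libraries and ranks of 1754 and 1929 among the 55401 genes. H2-Ab1 was intermediate, at 24.6 TPM (rank 6708). Cd74 (2.27 TPM, rank 12888), H2-Eb1 (1.94 TPM, rank 13311), H2-Aa (0.388 TPM, rank 17724) and Ciita (0.0361 TPM, rank 24413) were low. The invariant chain is one of the most abundant transcripts of professional antigen-presenting cells, but in these cells it stood beside the low alpha and beta chains and apart from the H2-DM genes with which it works. In the order of levels, H2-DMa and H2-DMb1 overlapped in range, as did Cd74 and H2-Eb1, H2-Eb1 and H2-Aa, and H2-Aa and Ciita. H2-Ab1 overlapped with neither neighbour, since its 12 values, from 19.8 to 33.0 TPM, lay below all those of H2-DMb1 and above all those of Cd74.

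**Figure D1:**
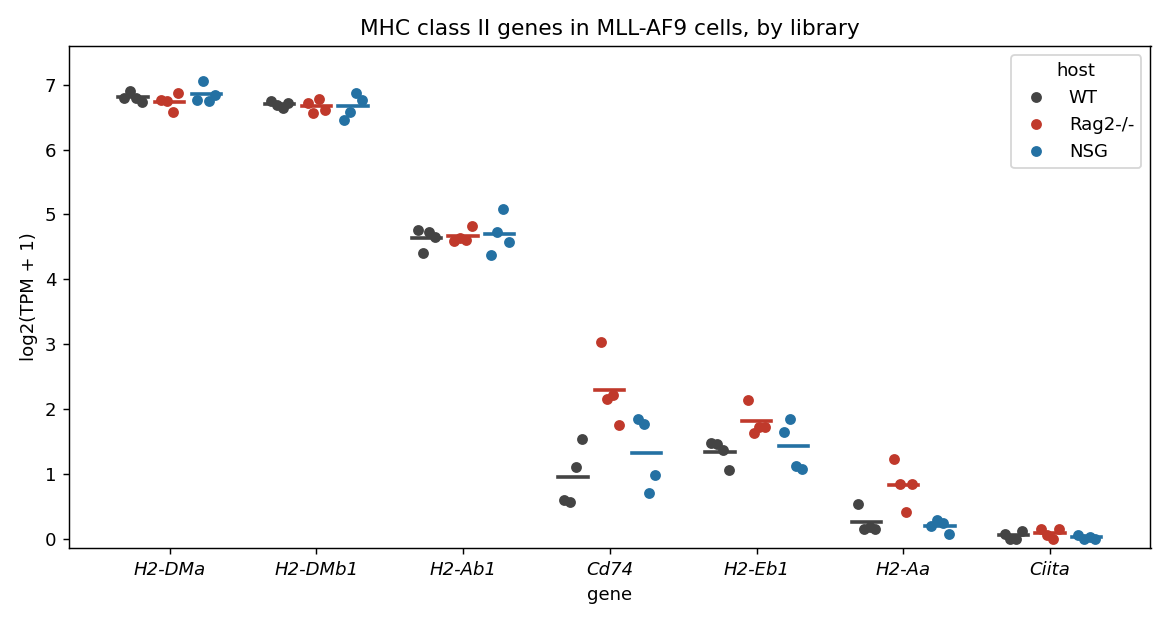
Level of each class II gene as log2(TPM + 1), 1 point for each library and a bar at the mean of the 4 libraries of a host, with genes ordered by mean level. H2-DMa and H2-DMb1 stand near 7, H2-Ab1 near 5 and the other 4 genes below 3.1, and the hosts separate visibly only among the low genes.

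The files hold no read counts, so the read pairs behind these levels were estimated from the steps between low TPM values, using GENCODE M21 exon lengths. With 1000000 read pairs as the unit, the 4 WT libraries held 8.0 to 13.6, the Rag2-/- libraries 8.68 to 21.4 and the NSG libraries 9.5 to 16.6. Summed over 4 libraries, WT held 38.5, Rag2-/- 58.5 and NSG 46.1 in this unit, so the sums of pairs below differ in depth between hosts. At this depth 3 read pairs on a 1 kb transcript equal 0.499 to 1.29 TPM. H2-Ab1 rested on 131.5 to 420 estimated pairs a library, whereas Cd74 rested on 2 to 60, H2-Eb1 on 5 to 33, H2-Aa on 1 to 25.5 and Ciita on 0 to 6. The levels of the low genes therefore carry a large counting error, apart from the spread between mice.

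The hosts were compared with limma, a linear model fitted to every gene, on log2(TPM + 1), over the 15026 genes whose mean reached 1 TPM. A gene was called at an adjusted p-value below 0.05 (Benjamini-Hochberg) and a log2 fold change beyond 0.5, and all fold changes below are on this log2(TPM + 1) scale, which understates changes of low genes. The filter on low values was passed by 5 of the 7 class II genes, and H2-Aa and Ciita failed it. None of the 5 was called in any comparison. Between Rag2-/- and WT mice, 0 of 5 were called, while 1.47% of all genes tested were. The latter rests on 221 genes, and on 48 without WT replicate 2. Between Rag2-/- and NSG mice, 0 of 5 were called against 0.213% of all genes tested, and between NSG and WT mice 0 of 5 against 0% (0 genes by limma, with 1377 at an unadjusted p below 0.05, and 1 gene by voom on the estimated read pairs). At an unadjusted p below 0.05, 1 of the 5, Cd74, differed between Rag2-/- and WT mice, as did 3146 of the 15026 genes tested, and Cd74 again between Rag2-/- and NSG mice, as did 1888. In the first comparison a count of 1 in 5 is near the share over all genes. By position alone, 0 of the 7 genes had NSG and WT libraries that did not overlap, against 4.59% of all genes tested, a set without H2-Aa and Ciita. The 3 comparisons share libraries, and p-values measure the spread between these 4 libraries a host, from a single leukemia line.

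Cd74, whose product also serves at the cell surface as a receptor for the cytokine Mif, had its highest levels in Rag2-/- mice. It was at 0.513, 0.472, 1.14 and 1.89 TPM in WT libraries 1 to 4, at 7.17, 3.46, 3.65 and 2.38 TPM in Rag2-/- libraries, and at 2.57, 2.40, 0.631 and 0.981 TPM in NSG libraries. Every Rag2-/- library lay above every WT library, as in 10.2% of all genes tested, while the lowest Rag2-/- library lay below the 2 highest NSG libraries. The means were 1.00 ± 0.665 (SD, n = 4) in WT, 4.16 ± 2.08 in Rag2-/- and 1.64 ± 0.981 in NSG mice. Rag2-/- against WT, the log2 fold change was 1.34 (SE 0.34, 95% interval 0.59 to 2.09), with an unadjusted p = 0.0021 and an adjusted p = 0.0560 by limma, which misses the limit. Cd74 passed the limit when the 8 libraries of these hosts were fitted alone (adjusted p = 0.0414 by limma) or when NSG replicate 3 was left out (adjusted p = 0.0392), so the call turns on how the spread is estimated.

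Against NSG mice the log2 fold change of Cd74 was 0.97 (SE 0.34, adjusted p = 0.254 by limma), and between NSG and WT mice it was 0.38 (interval -0.37 to 1.13, adjusted p = 0.783). The Rag2-/- value leaned on replicate 1, the highest of all 12 libraries. Without it the log2 fold change against WT was 1.10 (adjusted p = 0.113 by limma). In reads, not scaled for depth, Cd74 had 19 estimated pairs in the 4 WT libraries together, 117.5 in the 4 Rag2-/- libraries and 35 in the 4 NSG libraries. In bulk RNA a larger number of cells that express a gene and more RNA in each cell cannot be told apart.

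H2-Eb1, the beta chain of the I-E molecule, followed the same order of hosts at a smaller size. Its levels were 1.77, 1.73, 1.58 and 1.09 TPM in WT, 3.41, 2.10, 2.31 and 2.31 TPM in Rag2-/-, and 2.13, 2.59, 1.18 and 1.11 TPM in NSG libraries. The Rag2-/- libraries were all above the WT libraries, as in 10.2% of all genes tested, and overlapped with the NSG libraries. The log2 fold change of H2-Eb1 was 0.47 (SE 0.22, 95% interval -0.0045 to 0.94, adjusted p = 0.244 by limma) between Rag2-/- and WT mice, 0.38 (adjusted p = 0.513) between Rag2-/- and NSG mice, and 0.08 (adjusted p = 0.936) between NSG and WT mice. None of these differences exceeded the replicate error after adjustment. H2-Ea-ps, the alpha chain gene that C57BL/6 mice do not express, was listed at 0 in all 12 libraries.

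H2-Aa, the alpha chain of the I-A molecule, was barely detected. It was at 0.454, 0.104, 0.135 and 0.111 TPM in WT, at 1.35, 0.785, 0.323 and 0.788 TPM in Rag2-/-, and at 0.142, 0.221, 0.186 and 0.0542 TPM in NSG libraries. All Rag2-/- libraries were above all NSG libraries, an arrangement that 4.34% of all genes tested showed in this direction and 6.59% in either. H2-Aa is not among the genes tested, so these shares are for genes at higher mean levels. WT replicate 1 was above Rag2-/- replicate 3. The pairs, not scaled for depth, numbered 8 in WT, 56 in Rag2-/- and 7 in NSG libraries, summed over 4 libraries. Since H2-Aa failed the filter, it was tested only in a fit of all 27667 genes above 0 in any library, where 0.412% of genes were called against WT, 0.0253% against NSG mice and 0.00723% between NSG and WT mice. Its log2 fold change there was 0.57 against WT (adjusted p = 0.119 by limma) and 0.63 against the NSG host (adjusted p = 0.196). With a pseudocount of 0.1 the same log2 fold changes were 1.61 and 1.78 (adjusted p = 0.179 and 0.255 by limma), so that their size depends on the pseudocount and the call does not.

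H2-Ab1, the beta chain that pairs with H2-Aa, was far above its partner and close to level across hosts. It stood at 26.1, 20.3, 25.5 and 24.2 TPM in WT, 23.2, 24.0, 23.2 and 27.2 TPM in Rag2-/-, and 19.8, 25.5, 33.0 and 22.8 TPM in NSG libraries. The 3 hosts overlapped throughout. Means were 24.0 ± 2.62 (SD, n = 4), 24.4 ± 1.91 and 25.3 ± 5.68 TPM, and the log2 fold change between Rag2-/- and WT mice was 0.02 (95% interval -0.27 to 0.32, adjusted p = 0.941 by limma). The interval holds no change as large as the limit of 0.5 in either direction, and the same was true of H2-Ab1 in the other 2 comparisons.

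The ratio of beta to alpha chain within a library shows how unequal the I-A pair was. The TPM of H2-Ab1 divided by that of H2-Aa had a median of 192 in WT (57.5 to 217), 32.5 in Rag2-/- (17.2 to 72.0) and 158 in NSG libraries (116 to 420). Because H2-Ab1 hardly moved, the lower ratio in Rag2-/- libraries repeats the higher H2-Aa level and is not a separate result. The counting error of H2-Aa enters each ratio. Likewise the ratio of H2-Ab1 to Cd74 had a median of 32.7 in WT, 6.65 in Rag2-/- and 16.9 in NSG libraries.

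H2-DMa and H2-DMb1, the chains of the peptide exchange factor, were the most abundant of the class II genes. H2-DMa was at 111, 118, 111 and 106 TPM in WT, 108, 107, 94.7 and 116 TPM in Rag2-/-, and 107, 132, 106 and 114 TPM in NSG libraries. H2-DMb1 was at 107, 102, 98.5 and 105 TPM in WT, 105, 93.4, 108 and 97.2 TPM in Rag2-/-, and 87.1, 94.7, 117 and 108 TPM in NSG libraries. No host stood apart for either gene. Between Rag2-/- and WT mice the log2 fold change was -0.07 for H2-DMa (95% interval -0.24 to 0.10, adjusted p = 0.659 by limma) and -0.03 for H2-DMb1 (interval -0.21 to 0.15, adjusted p = 0.868).

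The H2-DM chains were near balance in TPM, with a ratio of H2-DMb1 to H2-DMa between 0.716 and 1.14 and a median of 0.921. In estimated pairs over the 12 libraries, H2-DMa had 15829.5 on exons of 3448 bases and H2-DMb1 7038.5 on exons of 1681 bases. The balance therefore rests on the lengths used for scaling. H2-DMa to Cd74, the exchange factor against the chaperone whose fragment it removes, had a median ratio of 156 in WT, 28.4 in Rag2-/- and 85.7 in NSG libraries. Part of each H2-DM level could belong to a neighbour. The exons of H2-DMa share 360 of 3448 bases (10.4%) with Brd2 on the other strand, which was at 179 TPM, and whether counting used strand is not given in the sources used here. Of the 50-base words of H2-DMb1, 22.7% also occur in H2-DMb2, which was at 11.8 TPM in WT, 12.8 TPM in Rag2-/- and 14.2 TPM in NSG mice.

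Ciita was at or near 0 in every library. It was listed at 0 in 5 of the 12 libraries and reached at most 0.105 TPM, or 6 estimated pairs. Summed over the 4 libraries and not scaled for depth, the pairs numbered 3 in WT, 12 in Rag2-/- and 1.5 in NSG mice. They lay over exons of 9535 bases, of which 3.45% overlap Dexi on the other strand. In the fit of all genes above 0, the log2 fold change of Ciita between Rag2-/- and WT mice was 0.04 (adjusted p = 0.767 by limma), and quantile normalization turned its sign (-0.04). A difference between hosts was not detectable at this depth. H2-Ab1 and the H2-DM genes were thus read at 19.8 to 132 TPM in cells where their transactivator was hardly detected.

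**Figure D2:**
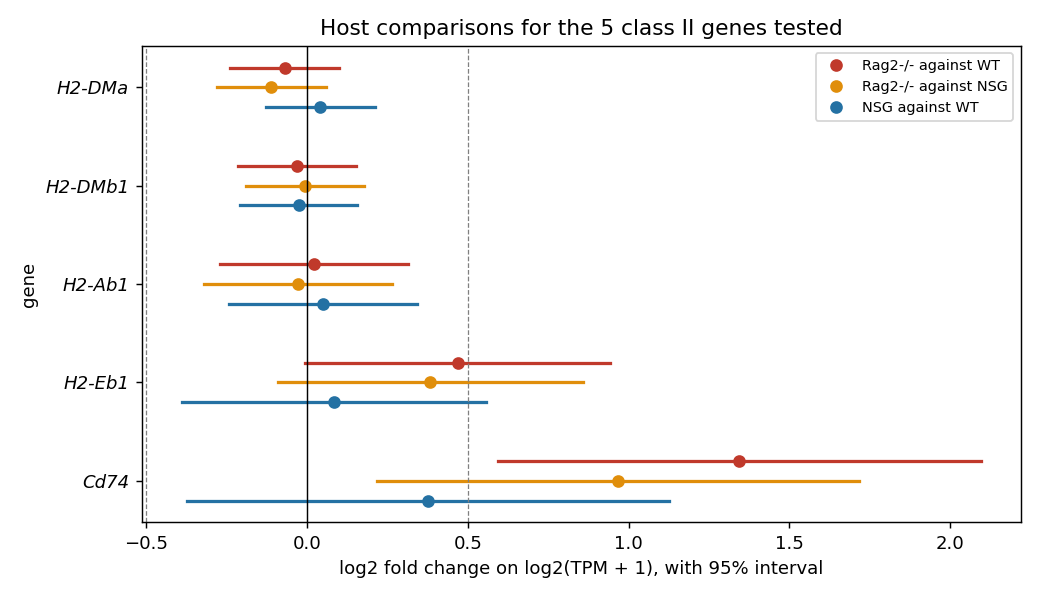
Log2 fold changes, on log2(TPM + 1), of the 5 class II genes tested in the 3 host comparisons, with 95% intervals from limma and dashed lines at the limit of 0.5. The intervals of H2-DMa, H2-DMb1 and H2-Ab1 lie within the limit in all 3 comparisons, and that of Cd74 is clear of 0 against WT (0.59 to 2.09) and against NSG mice (0.22 to 1.72), before adjustment.

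Across the 12 libraries Cd74, H2-Eb1 and H2-Aa correlated with one another more than with the high genes. Pearson's r of log2(TPM + 1) was 0.75 between Cd74 and H2-Eb1, 0.73 between H2-Aa and H2-Eb1, 0.68 between Cd74 and H2-Aa, and with Ciita it was 0.66 for H2-Aa, 0.46 for Cd74 and 0.29 for H2-Eb1. With Cd74, r was -0.24 for H2-Ab1, -0.26 for H2-DMa and -0.34 for H2-DMb1. The 2 H2-DM genes, whose products form 1 heterodimer, had an r of -0.32. These values describe 12 libraries that share hosts and depth and rest on few reads for the low genes. Rag2-/- replicate 1 was the highest library for Cd74, H2-Eb1 and H2-Aa alike. For Ciita it was level with Rag2-/- replicate 4, at 0.105 TPM each, on 5 and 6 estimated pairs.

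The 5 tested genes with the pattern most like Cd74 were Slc30a5 (r = 0.938), Gm10101 (0.938), Cep85 (0.933), Gne (0.931) and Dleu2 (0.900), out of 15021. For H2-Ab1 they were Slc25a1 (0.929), Gm10762 (0.917) and Gm6091 (0.915), for H2-DMa 5930430L01Rik (0.883), Tex9 (0.880) and Sarnp (0.880), and for Ciita Phf20 (0.863), Pef1 (0.841) and Gm14593 (0.836). None of these belongs to the class II pathway lists. With 12 libraries and 15021 genes, values of this height are found for each of the 4 genes, whatever its level.

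The class II region of chromosome 17 places the high and the low members side by side. From H2-Oa to Btnl2 it holds 15 annotated protein-coding genes. Brd2, a bromodomain protein gene, was at 179 TPM, and the antigen processing genes of the class I pathway within the region, Psmb9, Tap1, Psmb8 and Tap2, were at 98.1, 141, 126 and 169 TPM. H2-DMa and H2-DMb1 had levels like these, whereas H2-DMb2, which lies between them, was at 12.9 TPM and H2-Oa, the first gene of the region, at 6.21 TPM. On the far side, H2-Ob (a chain of the H2-O inhibitor of H2-DM), H2-Aa, H2-Eb1 and H2-Eb2 were all low, and H2-Ab1 was the only gene between Tap2 and Btnl2 above 3 TPM in its mean.

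**Figure D3:**
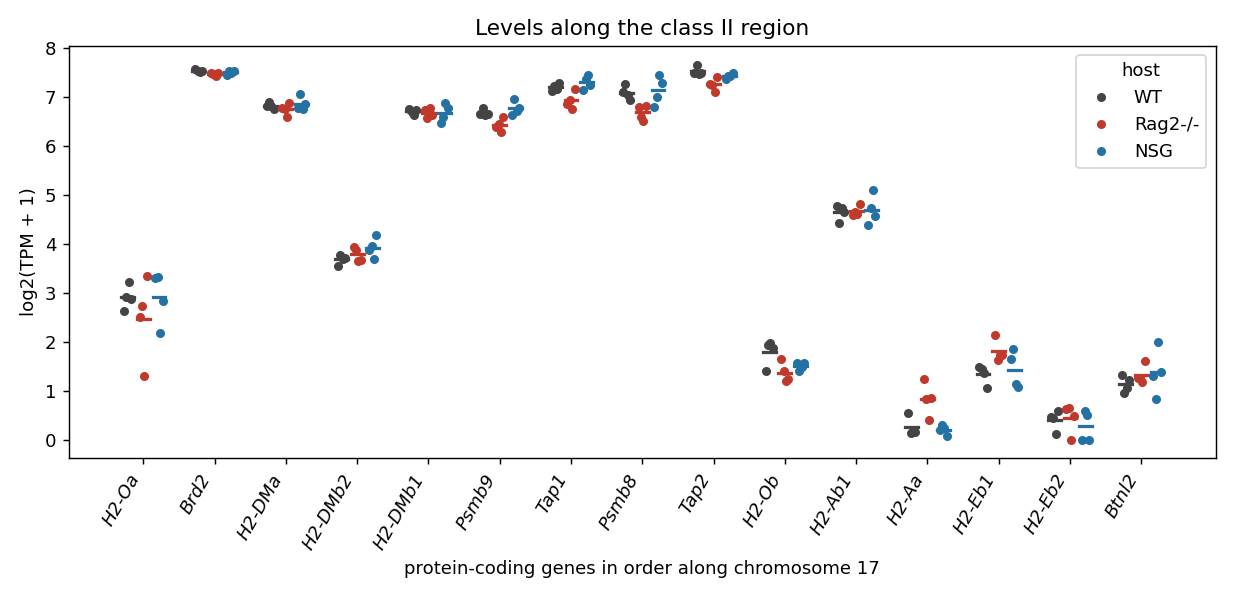
Levels, as log2(TPM + 1), of the 15 protein-coding genes of the class II region in their order along chromosome 17, 1 point for each library and a bar at the mean of a host. Brd2, H2-DMa, H2-DMb1, Psmb9, Tap1, Psmb8 and Tap2 stand between 6 and 8, and H2-Aa, H2-Eb1 and H2-Eb2 below 2.2 in every library.

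The rest of the class II pathway was for the most part expressed, and 1 of its genes was called between hosts. Of 36 listed genes 32 passed the filter, and between Rag2-/- and WT mice 1 was called higher and 0 lower (1.14% and 0.326% of all genes tested). The median log2 fold change was 0.04, against 0.02 over all genes tested. At an unadjusted p below 0.05 by limma, 11 were higher and 3 lower, beside 3146 of all 15026 genes in either direction. Compared with NSG mice 0 of 32 were called (median 0.07), with 8 higher and 2 lower at an unadjusted p below 0.05, beside 1888 of all genes. Between NSG and WT mice 0 of 32 were called (median 0.00), with 1 higher and 3 lower at an unadjusted p below 0.05, beside 1377 of all genes. The count by voom was 1 in the comparison with NSG mice.

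Among the other class II chains, H2-DMb2, H2-Oa (6.57 TPM in WT, 5.21 in Rag2-/- and 6.85 in NSG mice) and H2-Ob (2.51, 1.60 and 1.85 TPM) were tested and 0 of 3 called in any comparison. H2-Eb2 was below 0.4 TPM in the mean of each host. The factors that bind the X, X2 and Y boxes were all present. Rfx5, Rfxap and Rfxank, the subunits of the X box factor RFX, were at 21, 33.6 and 15.2 TPM in WT mice and at 20.8, 31.4 and 14.3 TPM in Rag2-/- mice. Nfya, Nfyb and Nfyc of the Y box factor NF-Y and Creb1 were between 30.2 and 84.2 TPM in WT mice. Of these 7, 0 were called between Rag2-/- and WT mice (median log2 fold change -0.06, 6 of 7 negative). The docking factors were thus measured at many times the level of Ciita itself.

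The interferon-gamma route, by which Ciita is induced in many cells, was also expressed, and 0 of its 11 listed genes was called in any comparison. Between Rag2-/- and WT mice its median log2 fold change was 0.15, with 6 positive and 5 negative. The receptor chain Ifngr1 was at 744 TPM in WT and 659 TPM in Rag2-/- mice (log2 fold change -0.18, adjusted p = 0.217 by limma). Jak1, a kinase of the receptor, was at 113 and 129 TPM (log2 fold change 0.20, adjusted p = 0.112). Spi1 (PU.1), a myeloid lineage factor, was at 558 and 623 TPM (log2 fold change 0.16, adjusted p = 0.0751). Cd80, the single costimulatory gene of 3 that passed the filter, was at 2.03 TPM in WT and 2.66 TPM in Rag2-/- mice (adjusted p = 0.609).

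The endosomal genes, which cut the invariant chain or turn class II over, held the 1 called gene of the pathway. March1, a ubiquitin ligase that removes class II from the cell surface, was at 1.99, 1.72, 2.33 and 2.13 TPM in WT, 3.37, 5.32, 5.60 and 3.29 TPM in Rag2-/-, and 2.04, 2.27, 3.31 and 2.31 TPM in NSG libraries. Its Rag2-/- libraries all lay above its WT libraries, as in 10.2% of all genes tested. The log2 fold change of March1 against WT was 0.80 (SE 0.19, adjusted p = 0.0449 by limma), and it was not called against NSG mice (0.62, adjusted p = 0.180). The call was lost, with adjusted p from 0.0528 to 0.147, when WT replicate 1, 2, 3 or 4, Rag2-/- replicate 1, 2 or 3, or NSG replicate 2 or 4 was left out, and likewise with the replicate number as a block (0.0585) or with all genes above 0 tested (0.0963).

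Ctss, cathepsin S, makes the last cuts of the invariant chain, and its mean was 60.2 TPM in WT, 83.8 TPM in Rag2-/- and 64.2 TPM in NSG mice. All Rag2-/- libraries were above all WT libraries (10.2% of all genes tested) and all NSG libraries (4.34%). Between Rag2-/- and WT mice the log2 fold change of Ctss was 0.47 (adjusted p = 0.0230 by limma), which passes the limit on p, as 2.8% of all genes tested did, and stays below the limit on the fold, and against NSG mice it was 0.38 (adjusted p = 0.108). Without WT replicate 3 or Rag2-/- replicate 1 it passed both limits against WT, at 0.50 and 0.54. Over all single libraries left out, its adjusted p against WT ran from 0.0152 to 0.0846 by limma. Under other settings it ran from 0.0217 to 0.0571, so the limit on p was missed in some fits. Lgmn, a lysosomal protease, was at 3.03 TPM in Rag2-/- and 0.709 TPM in NSG mice (log2 fold change 1.18, adjusted p = 0.0642 by limma, or 1.42 and 0.0349 without Rag2-/- replicate 2). With other single libraries left out, the adjusted p of Lgmn rose as far as 0.214 by limma, and under other settings as far as 0.175. Of the 8 endosomal genes, 7 had a positive log2 fold change against WT (median 0.35) and 7 against NSG mice (median 0.23).

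**Figure D4:**
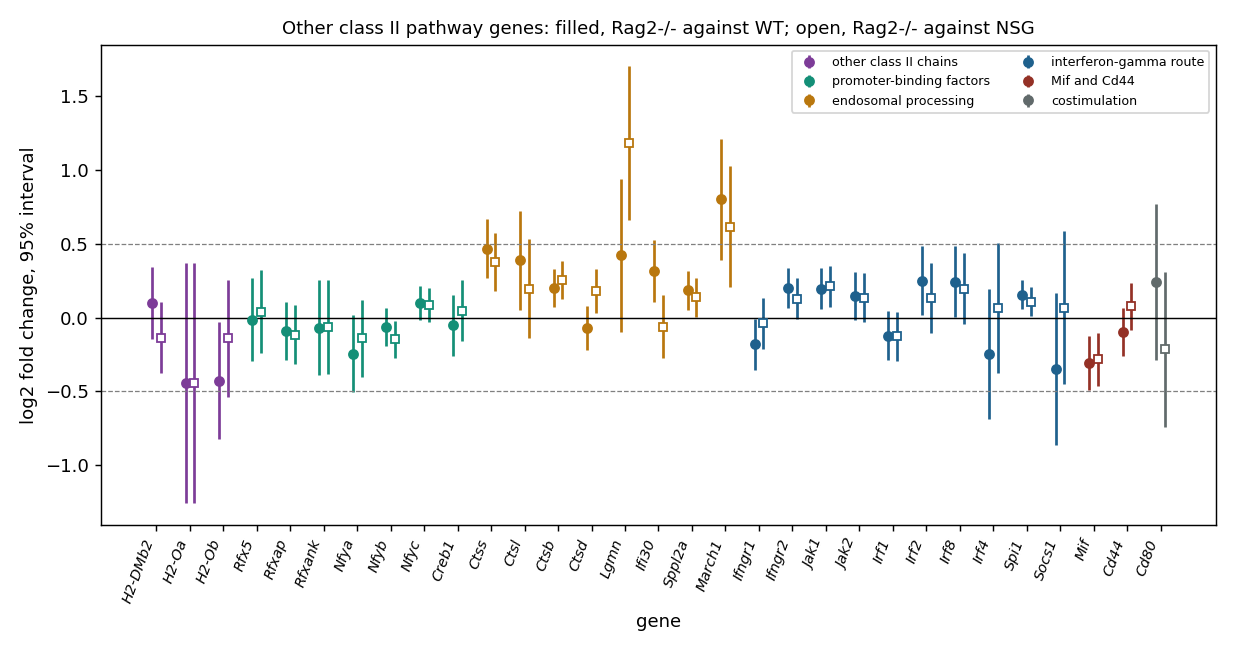
Log2 fold changes, on log2(TPM + 1) with 95% intervals from limma, of other pathway genes tested, grouped by role, with filled circles for Rag2-/- against WT and open squares for Rag2-/- against NSG mice. March1 is the single gene called (0.80 against WT), and the promoter-binding factors lie within 0.25 of 0 in both comparisons.

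Mif, the ligand of surface Cd74, was among the most abundant transcripts, at 1248 TPM in WT, 1009 TPM in Rag2-/- and 1232 TPM in NSG mice. Every Rag2-/- library was below every WT library, as in 6.72% of all genes tested. Its log2 fold change against WT was -0.31 (adjusted p = 0.0656 by limma), opposite in sign to that of Cd74 and likewise short of the limit. Cd44, the co-receptor, was at 134 TPM in WT and 125 TPM in Rag2-/- mice (log2 fold change -0.10, adjusted p = 0.482).

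Class II genes are strongly expressed by cells that a GFP+ fraction could still hold, so their markers were measured beside the low genes. Markers of MLL-AF9 myeloid leukemia passed the filter in 8 of 8 genes, of which Mpo (myeloperoxidase, a primary granule enzyme) was called lower in Rag2-/- than in WT mice (log2 fold change -2.13, adjusted p = 0.0189 by limma). In that comparison 0.326% of all genes tested were called lower. Of the 10 B cell markers, Ms4a1 was listed at 0 in all 12 libraries and Pax5, Ebf1 and Blk in all NSG libraries, whereas the B cell receptor genes Cd79a (mean 1.85 TPM) and Cd79b (3.55 TPM) were above 0 in every library. The summed level of the list ran from 181 to 232 TPM in WT, 140 to 211 in Rag2-/- and 126 to 222 in NSG libraries, nearly all of it Ighm. Igkc, an antibody light chain gene, had means of 9.38 TPM in WT, 0.0738 TPM in Rag2-/- and 0.169 TPM in NSG mice, and passed the filter through the WT libraries alone. Of the 10 dendritic cell markers 3 passed the filter and 0 were called in any comparison, with sums of 178 to 213, 150 to 192 and 157 to 204 TPM, mostly Flt3. Of the 10 T and NK cell markers 1 passed, with sums of at most 9.62 TPM, and Cd3e was listed at 0 throughout. The NK cell gene Ncr1 was listed at 0 in all WT and NSG libraries and lay between 0.108 and 0.531 TPM in Rag2-/- libraries, on 1 to 3 estimated pairs each. Gzma was at 0 in all WT libraries, at 0.624 to 2.39 TPM in Rag2-/- and at 0 to 1.67 TPM in NSG libraries. Klrb1c had means of 0.410, 0.927 and 0.272 TPM in WT, Rag2-/- and NSG mice. Of the 10, 2 had all Rag2-/- libraries above all WT libraries and 1 below, beside 10.2% and 6.72% of all genes tested. Those shares are over genes that passed the filter, as 1 of the 10 did, and may not apply to genes at so few pairs. Nkg7, the marker that passed the filter, was at 5.93 TPM in WT, 3.49 TPM in Rag2-/- and 5.19 TPM in NSG mice (log2 fold change -0.72 between Rag2-/- and WT mice, adjusted p = 0.332 by limma).

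Some macrophage markers, the C1q genes and Axl among them, correlated with Cd74 over the pooled libraries of the 3 hosts, and others did so less. Of 10 listed genes 9 passed the filter, and the summed level ran from 104 to 111 TPM in WT, 114 to 133 in Rag2-/- and 66.3 to 122 in NSG libraries. Between Rag2-/- and WT mice 1 of 9 was called higher, beside 1.14% of all genes tested. This was C1qc, a chain of complement C1q that tissue macrophages make, at 4.07 against 1.12 TPM (log2 fold change 1.28, adjusted p = 0.0251 by limma). The median over the 9 was 0.52, with 7 positive and 2 negative, the latter Adgre1 (57.4 TPM in WT and 55.0 TPM in Rag2-/- mice) and Cd163 (10.3 and 10.1 TPM). Compared with NSG mice 1 of 9 was called higher, beside 0.193% of all genes tested, and the median was 0.81. The called gene was the receptor Axl, at 3.08 against 0.535 TPM (log2 fold change 1.37, adjusted p = 0.0462 by limma). Axl was at 1.24 TPM in WT mice, and without the Rag2-/- libraries its mean would have missed the filter. It thus passed the filter through the group in which it was called higher.

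The summed TPM of C1qa, C1qb and C1qc was 1.44, 6.19, 6.46 and 9.22 in WT, 28.4, 12.8, 20.7 and 13.6 in Rag2-/-, and 2.62, 5.0, 3.90 and 4.63 in NSG libraries. Both C1q and Cd74 were highest in Rag2-/- replicate 1. Over the 12 libraries r of Cd74 was 0.81 with C1qc, 0.75 with C1qa, 0.72 with Ctss, 0.70 with C1qb and 0.68 with Axl, whereas it was 0.18 with Adgre1 (F4/80) and 0.26 with Vcam1, 2 further macrophage markers. Mrc1 (0.63), Mertk (0.60) and Cd5l (0.48) lay between. Because hosts are pooled, a difference between hosts shared by 2 genes enters each r. H2-Aa had an r of 0.88 with Mrc1 and 0.82 with Axl. The part of macrophage RNA in the levels of Cd74, H2-Eb1 and H2-Aa was not tested.

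**Figure D5:**
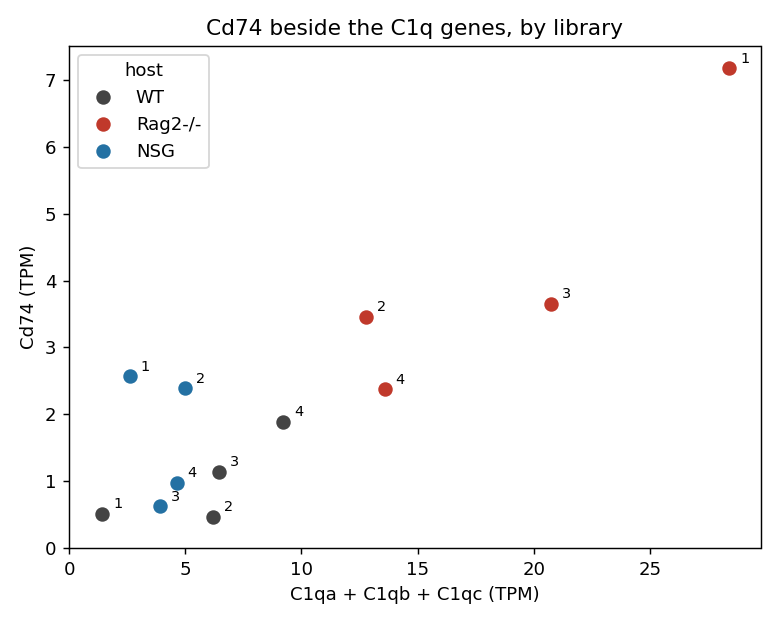
Cd74 level (TPM) against the summed level of C1qa, C1qb and C1qc (TPM), 1 point for each library, coloured by host and numbered by replicate. The 4 Rag2-/- libraries lie at 12.8 TPM of C1q or more and the other 8 at 9.22 TPM or less, while NSG replicates 1 and 2 had Cd74 at 2.57 and 2.40 TPM with C1q at 5.0 TPM or less.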

How the data were processed

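RNA of GFP+ MLL-AF9 cells was sequenced from both ends after poly-T selection (12 libraries). The authors aligned reads to mm10 with HISAT2 on Galaxy, took raw gene counts and calculated TPM, which is the deposited unit, 1 column a library. The counting tool, annotation, gene lengths and strand setting are not given in the sources used here. From the deposited TPM, log2(TPM + 1) was computed, and the 15026 of 55401 genes whose mean reached 1 TPM were fitted for the 3 hosts together with limma 3.58.1 in R 4.3.3, with trended eBayes and no covariate. Benjamini-Hochberg adjustment ran over all genes tested in each comparison. The script was tested on simulated data.

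Symbols, positions and exon lengths came from GENCODE M21. TPM multiplied by exon length fell within 0.02 of a multiple of 0.5 steps for 98.6% to 98.9% of genes under 20 pairs, and the step was read as 1 read pair. This is an estimate, with no interval for counting error.

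The members, lists and named genes (members, pathway genes, region genes, and the 5 or 3 of most like pattern) were chosen with earlier results of these data known. Of the pathway lists, March1 was matched under that symbol and H2-Ea only as H2-Ea-ps. Alternatives were another pseudocount, other filters, quantile or median-ratio scaling, 8 libraries alone, a replicate block, eBayes without a trend, no fold limit and each library left out. Voom on estimated read pairs was added after seeing the data. Of the listed genes, 2 are not reported here.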

Additional observations from a re-analysis of the deposited data

Results flagged for a closer look

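Of 21 groups of 4 libraries (7 genes in 3 hosts), 2 held a library far from the other 3 by Dixon's criterion, where chance alone gives about 1.05. The first was H2-Aa in WT mice, in which replicate 1 (0.454 TPM, 4 estimated pairs) was apart by 0.913 of the group's range from libraries at 0.104 to 0.135 TPM (1 or 2 pairs). The second was H2-Eb1 in Rag2-/- mice, in which replicate 1 (3.41 TPM, 33 pairs) was apart by 0.837 of the range from libraries at 2.10 to 2.31 TPM. Without WT replicate 1 the log2 fold change of H2-Aa between Rag2-/- and WT mice was 0.67 (adjusted p = 0.110 by limma). Without Rag2-/- replicate 1 that of H2-Eb1 was 0.36 (adjusted p = 0.425).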

How the results depend on the processing

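Of the class II genes, 0 were called under any alternative except 1 (Cd74, Rag2-/- against WT) with the 8 libraries alone, and 0 to 1 when a library was left out (1 without NSG replicate 3). The log2 fold change of Cd74 against WT was 1.10 to 1.54 without single libraries (adjusted p 0.0392 to 0.158 by limma) and 1.26 to 2.03 otherwise (0.0414 to 0.109). The count of other pathway genes called against WT was 0 with all genes above 0, 0 with the replicate block, 2 (Ctss and March1) with no fold limit, and 0 to 1 when a library was left out. Against NSG mice it was 1 (Lgmn) by voom and 0 to 1 when a library was left out (1, Lgmn, without Rag2-/- replicate 2). Calls over all genes were 221, 32 and 0 for Rag2-/- against WT, Rag2-/- against NSG and NSG against WT, 290, 63 and 1 by voom, 114, 7 and 2 with all genes above 0, and 355, 6 and 0 with 8 libraries alone. With a library left out they were 48 (without WT replicate 2) to 327 (without NSG replicate 3), 4 (without Rag2-/- replicate 3) to 90 (without Rag2-/- replicate 4), and 0 to 2.

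Signs turned only for values near 0, under quantile normalization for H2-Ab1 against WT (-0.00815), H2-Eb1 between NSG and WT (-0.00829) and Ciita against WT (-0.0441), and when libraries were left out. Those ranges were, for H2-Ab1, -0.0522 to 0.0637 (Rag2-/- against WT), -0.133 to 0.105 (against NSG) and -0.0815 to 0.156 (NSG against WT), for H2-DMb1 in the same order -0.0658 to 0.00524, -0.0765 to 0.0634 and -0.0940 to 0.0459, and between NSG and WT -0.0264 to 0.0776 for H2-DMa, -0.0548 to 0.200 for H2-Eb1 and -0.0912 to 0.0411 for H2-Aa. The cause was not tested. With the replicate block, calls over all genes were 165, 5 and 0. Same-numbered libraries of different hosts had deviations correlated between -0.091 and 0.032, so the numbers do not pair them. Depth limits Ciita and H2-Aa, which had at most 6 and 25.5 estimated pairs a library.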
